A study of Mus musculus with 7 samples.

Results

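The mouse Cyp2d cytochromes are monooxygenases of the liver, and 4 of their genes, Cyp2d9, Cyp2d10, Cyp2d22 and Cyp2d26, are described here in offspring livers after ethanol exposure in early pregnancy. They were taken by name, as every probe whose single gene symbol was one of the 4 genes, which gave 7 of the 45281 probes on the array. Cyp2d9, Cyp2d10 and Cyp2d22 had 1, 1 and 2 probes, and Cyp2d26 had 3. The livers came from 7 male C57BL/6J mice at postnatal day 28, on 1 Illumina BeadArray each. The ethanol group was 3 offspring of dams with free access to 10% ethanol (v/v), from fertilization until gestational day 8.5. The control group was 4 offspring, assigned by sample title, because the exposure label is the same on every sample and the labels do not say what control dams drank. Litters are not given, so each p-value reflects the scatter of these 7 livers, which may be smaller than that between litters.

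Cyp2d enzymes sit in the membrane of the endoplasmic reticulum of hepatocytes, carry a haem group and take electrons from the reductase POR and from cytochrome b5. The family is known for oxidising basic drugs, and human liver has a single functional member, CYP2D6. In mice the family has expanded into a gene cluster whose members differ in substrate and in sex bias. Cyp2d9 is the best known of them, a steroid hydroxylase that acts on testosterone and is expressed more in adult male than in female mouse liver under the male pattern of growth hormone secretion. Cyp2d22 has been proposed as the mouse counterpart of human CYP2D6. All lie on chromosome 15, where the RefSeq gene table of GRCm38.p6 lists 19 Cyp2d genes and pseudogenes, 8 of them protein coding, in the order Cyp2d22, Cyp2d11, Cyp2d10, Cyp2d9, Cyp2d12, Cyp2d34, Cyp2d40 and Cyp2d26.

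The stretches of 120 bases before the start site are shown for the 3 of the 4 genes that the RefSeq promoter table (GRCm38.p6) holds. They are shown because the groups overlapped for Cyp2d10 but not for its close relative Cyp2d9, though neither passed the test across all probes. A part of the promoter sequence in this was not tested. Each stretch is written 5′ to 3′ on the gene's own strand, and capitals mark the motifs found in it.
Cyp2d9, plus strand, chr15:82452257-82452376: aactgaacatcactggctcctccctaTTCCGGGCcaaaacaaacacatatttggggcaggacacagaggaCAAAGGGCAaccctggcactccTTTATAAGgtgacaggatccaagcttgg
Cyp2d10, minus strand, chr15:82407195-82407314: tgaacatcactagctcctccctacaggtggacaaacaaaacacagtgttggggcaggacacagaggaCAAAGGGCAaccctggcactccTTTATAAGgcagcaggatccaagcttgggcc
Cyp2d26, minus strand, chr15:82794246-82794365: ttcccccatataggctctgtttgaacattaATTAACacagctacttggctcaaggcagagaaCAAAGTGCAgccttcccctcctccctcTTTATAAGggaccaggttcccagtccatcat

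Over the 250 bases before the start, Cyp2d9 and Cyp2d10 shared 82.8% of aligned positions, whereas Cyp2d9 and Cyp2d26 shared 53.6%. The letters CAAAGGGCA, of the kind that the hepatocyte factor HNF4A binds, were in Cyp2d9, at 50 to 42 bases before the start, and in Cyp2d10, at 53 to 45. Cyp2d26 held CAAAGTGCA at 58 to 50. Searched on both strands as CAAAGNNCA, this motif was in 5.49% of the 32851 promoter windows of the table, and in all 5 Cyp2d windows listed (Cyp2d11 and Cyp2d40 besides these). The letters TTCCGGGC, which resemble a site of the factor GABP described for mouse Cyp2d9, lay 94 to 87 bases before the Cyp2d9 start, were in 1.1% of all windows and were in neither of the other windows shown. A TATA motif (TATAAN) matched at TATAAG in each of the 3 and overlapped itself on the opposite strand as TTTATA, and 22.7% of windows had one. The HNF1 motif GTTAAT was found in Cyp2d26 alone of the 5 windows, as ATTAAC on the opposite strand at 90 to 85 bases before the start, against 6.43% of all windows. The letters TTCNNNGAA of a STAT5 site (7.02% of windows) and TTGCNNAA of a C/EBP core (9.56%) were not found in these 250 bases. The forms of the HNF4A, GABP and TATA motifs were settled after the sequences had been read.

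The number of probes above background ran from 13951 to 14269 in ethanol livers and from 14287 to 15068 in control livers, with the limit at 3 times the noise of that array. Every ethanol array was thus below every control array in this number, though by little at the nearest arrays (14269 and 14287). The highest number, 15068, was that of control 1, whose limit was the lowest of all arrays at 21.3, and the next control had 14421. The part of this number in the results was not tested. Probes brighter than the median of their array in 3 or more livers were tested, which held for 23829 probes and for all 7 of Cyp2d9, Cyp2d10, Cyp2d22 and Cyp2d26. Of these 7, 6 were above background on all 7 arrays. Control 1, a control liver, was the lowest of the 7 livers for every one of these 6 probes, so values are given with and without it. It was also lowest at the remaining probe, which was not above background on any array. Among the controls it was the lowest for 28.9% of all tested probes, and for 34.7% of those above background on all 7 arrays.

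The Cyp2d9 probe was brighter in every ethanol liver than in any control liver. It gave intensities of 14793, 21169 and 22867 in the 3 ethanol livers, against 3805, 11996, 12317 and 13138 in the 4 control livers. All 3 ethanol values lay above all 4 control values, and control 1 lay far below the other controls. The mean was 19610 ± 4257 (SD, n = 3) in ethanol livers and 10314 ± 4366 (SD, n = 4) in control livers, a ratio of 1.90. On the log2 scale the fold change, ethanol minus control, was 1.02 ± 0.35 (SE), with an unadjusted 95% interval of 0.24 to 1.80. The difference did not pass the test across all probes (limma, adjusted p 0.480). An exact permutation test of the log2 means over the 35 splits of the livers gave a two-sided p of 0.0571, where the smallest possible is 0.0286.

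Part of the size of the Cyp2d9 difference came from control 1. Without that liver the control mean was 12484 ± 589 (SD, n = 3) and the ratio 1.57. The log2 fold change was then 0.61 ± 0.15 (SE), with an interval of 0.28 to 0.94 and a limma adjusted p of 0.479. Ethanol livers lay wholly above control livers for 1 of the 7 probes, that of Cyp2d9, against 4.15% of all tested probes. Without control 1 the share over all tested probes was 5.79%. Cyp2d9 was necessarily still among them, because leaving out a control cannot create overlap. None of the 7 probes passed the limma threshold, against 0.0210% of all tested probes, and 1 of the 7 had an unadjusted p under 0.05, against 8.80%.

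**Figure D1:**
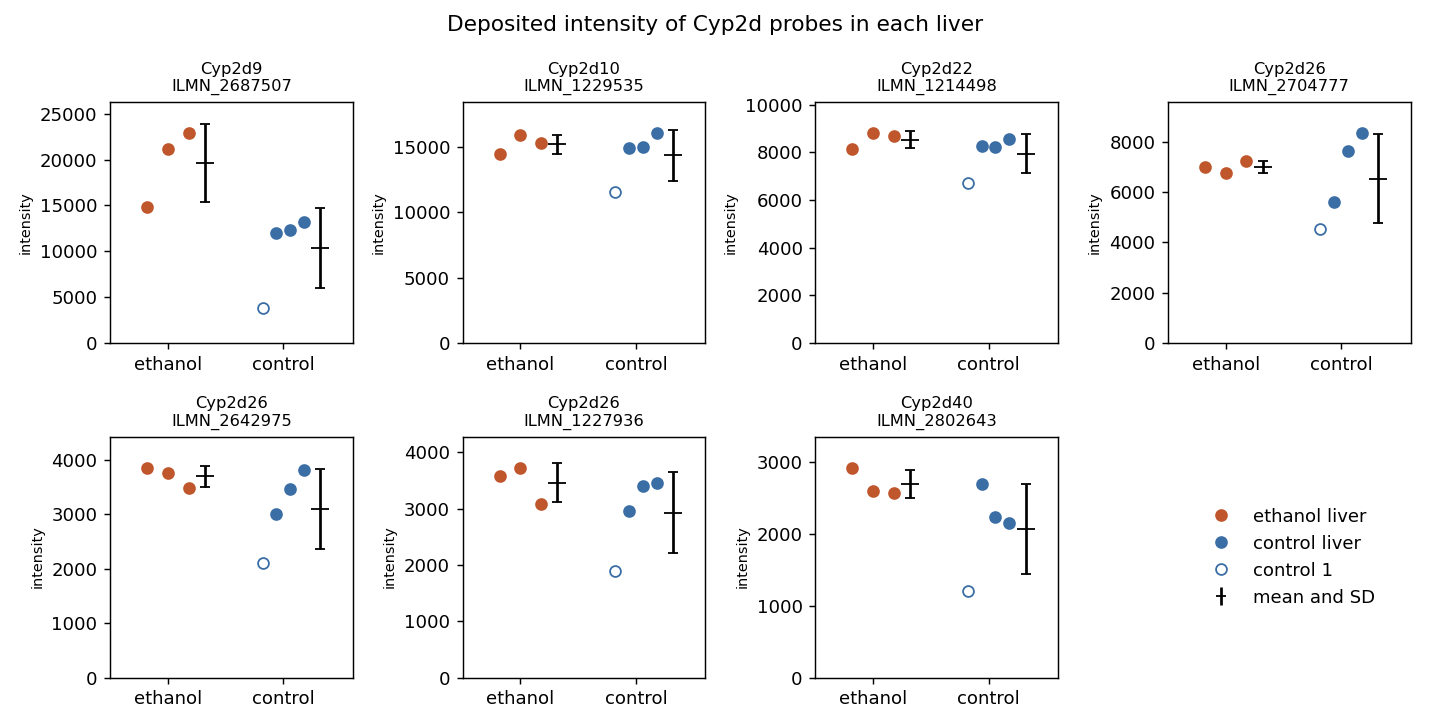
Deposited intensity (linear axis from 0) of 7 of the 8 Cyp2d probes above background on all arrays, with ethanol livers left of control livers. The probe of Cyp2d13 is not drawn. Points are single livers, the open point is control 1, and the bars give the mean and SD. Cyp2d9 has 3 ethanol values from 14793 to 22867, all above the control values, whereas the groups overlap for the other probes.

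Cyp2d10, a neighbour of Cyp2d9 in the cluster, was at nearly the same level in both groups. It had 14425, 15872 and 15259 in ethanol livers, against 11549, 14880, 14997 and 16029 in control livers. The groups overlapped, with control 1 alone below the rest. The means were 15185 ± 727 (SD, n = 3) in ethanol livers and 14364 ± 1946 (SD, n = 4) in control livers. The log2 fold change was 0.04 ± 0.10 (SE), its interval ran from -0.18 to 0.27, and the limma adjusted p was 0.936. Without control 1 the estimate turned to -0.04, with an interval of -0.23 to 0.16.

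Cyp2d22 also had overlapping groups. Its bright probe gave 8133, 8797 and 8667 in ethanol livers, against 6726, 8279, 8221 and 8562 in control livers. Apart from control 1, the livers of both groups lay within a narrow band. The log2 fold change was 0.08 ± 0.09 (SE), with an interval of -0.12 to 0.29 (limma adjusted p 0.841), and it was 0.02 without control 1. The second probe of the gene, ILMN_1237648, was not above background on any array, with a mean of 12.3 ± 3.40 in ethanol livers and 12.7 ± 4.38 in control livers, and says nothing about the gene's level.

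Cyp2d26 was read by 3 probes, and the groups overlapped at each. The brightest, ILMN_2704777, gave 6981, 6753 and 7222 in ethanol livers, against 4544, 5593, 7642 and 8337 in control livers. The ethanol values fell inside the range of the controls, which was wide. At ILMN_2642975 the values were 3845, 3758 and 3478 in ethanol livers, against 2104, 2997, 3452 and 3810 in control livers. At ILMN_1227936 they were 3588, 3722 and 3076 in ethanol livers, against 1895, 2961, 3403 and 3462 in control livers. In each case control 1 was lowest and control 2 next. Ethanol 3 was the highest ethanol liver at ILMN_2704777 and the lowest at the other probes, and controls 3 and 4 lay above all ethanol livers at ILMN_2704777 alone. The log2 fold changes were 0.11 ± 0.17, 0.27 ± 0.17 and 0.25 ± 0.18 (SE), with limma adjusted p-values of 0.895, 0.687 and 0.726. Without control 1 they were -0.03, 0.11 and 0.07. The 3 intervals were -0.27 to 0.50, -0.10 to 0.63 and -0.13 to 0.64, so at the third probe values up to 1.56-fold lay within the interval.

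**Figure D2:**
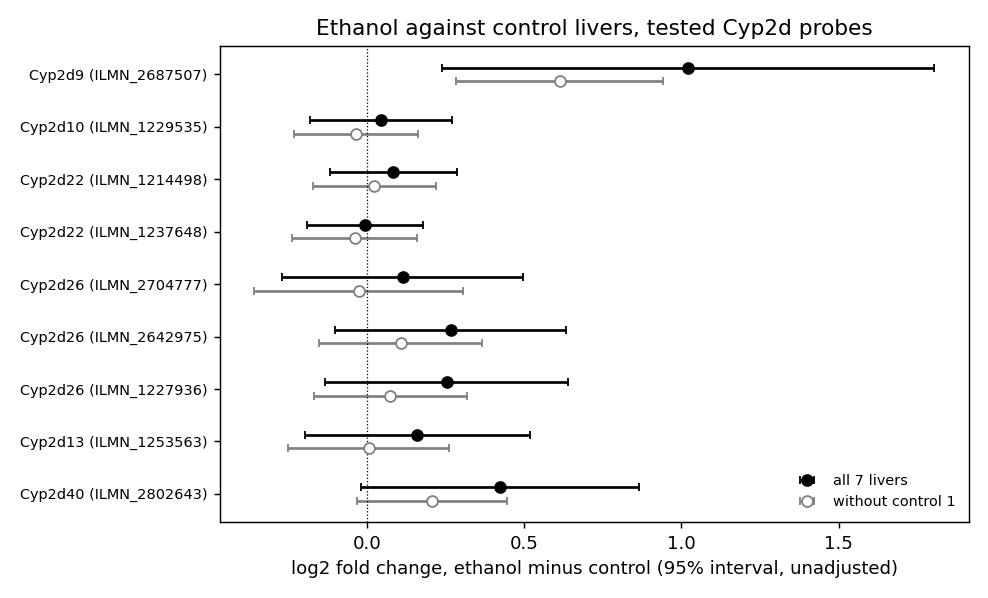
Log2 fold change, ethanol minus control, of the 9 tested Cyp2d probes with unadjusted 95% intervals, from all 7 livers (filled) and without control 1 (open). The interval of Cyp2d9 lies above 0 in both (0.24 to 1.80, and 0.28 to 0.94), and each other interval includes 0.

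Cyp2d9 was set against each other gene within each liver, as the difference of their log2 values, so that a shift common to both genes in a liver cancelled. This comparison was added after the values had been seen. The groups then differed by 0.98 for Cyp2d9 against Cyp2d10 and by 0.94 for Cyp2d9 against Cyp2d22, both higher in ethanol livers, and by 0.91 for Cyp2d9 against Cyp2d26. The exact permutation p, two-sided, was 0.0286 for Cyp2d10 and for Cyp2d22, the smallest that 35 splits allow, and 0.0857 for Cyp2d26. The 3 pairs share the Cyp2d9 values, and these p-values are not adjusted. Cyp2d9 already had groups without overlap and the other genes were nearly level between groups, so these p-values largely repeat that separation. They are no further support for it. Control 1 did not cancel, as the control differences against Cyp2d10 ran from -1.62, in control 1, to -0.29. The ethanol and control livers did not overlap in the differences against Cyp2d10 and Cyp2d22, and overlapped in that against Cyp2d26. Without control 1 the 3 differences were 0.65, 0.59 and 0.64, and an exact test of 3 livers against 3 cannot reach a p under 0.05. Such a ratio between probes can point to unequal change, but not to which gene moved.

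Of 7 other Cyp2d genes listed, 4 had a probe. Cyp2d40 had 2915, 2591 and 2564 in ethanol livers, against 1206, 2689, 2238 and 2150 in control livers. Its log2 fold change was 0.42 ± 0.20 (SE) with a limma adjusted p of 0.585, and 0.21 without control 1. Cyp2d13, listed as a transcribed pseudogene, had 151, 140 and 164 in ethanol livers, against 74.1, 121, 170 and 170 in control livers (0.16 ± 0.16, adjusted p 0.826). The groups overlapped for both, and the low control was again control 1. Cyp2d12 and Cyp2d34 were not above background on any array and were not tested. Cyp2d11, Cyp2d37-ps and Cyp2d41-ps had no probe named for them and were not analysed here. Closely related members can share hybridisation signal, and probe sequences were not used here, so the probes are not certain to be separate readings.

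Control 1 was low across the family. Its Cyp2d9 intensity was 0.305 times the mean of the other controls, that of Cyp2d13 0.483 and that of Cyp2d40 0.511. Those of the 3 Cyp2d26 probes were 0.632, 0.615 and 0.579, that of Cyp2d10 0.755 and that of Cyp2d22 0.805. On the log2 scale only 9 of the 23829 tested probes were further below the other controls in control 1 than Cyp2d9, at -1.63. For Cyp2d40 there were 90 such probes, for Cyp2d13 200, for those of Cyp2d26 from 139 to 279, for Cyp2d10 1190 and for Cyp2d22 2321. All 8 Cyp2d probes above background on all arrays were lowest in control 1 among the 7 livers, and for all 8 the log2 SD was larger between controls than between ethanol livers. For Cyp2d9 these SDs were 0.33 in ethanol and 0.82 in control livers, and for Cyp2d10 they were 0.05 in ethanol and 0.17 in control livers. Without control 1 this order turned for some probes. The intensity SD of the other controls was 589 for Cyp2d9, against 4257 in ethanol livers, and 632 for Cyp2d10, against 727. It was also below that of ethanol livers for the bright Cyp2d22 probe and for ILMN_1227936 of Cyp2d26. For the remaining probes it stayed larger. Of genes flanking the cluster, control 1 was the lowest control for 3 of 10 tested.

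As a description over 7 livers of shared tissue and array type, Cyp2d9 correlated with Cyp2d10 at r = 0.841 and with Cyp2d22 at r = 0.935. Without control 1 these were 0.068 and 0.641 over 6 livers, so the first rested on that liver. Cyp2d10 and Cyp2d22 correlated at 0.963, and at 0.756 without control 1. Cyp2d40 correlated with Cyp2d9, Cyp2d10, Cyp2d22 and the brightest Cyp2d26 probe at 0.890, 0.744, 0.808 and 0.542. Without control 1 these were 0.351, -0.827, -0.297 and -0.499. Of 3 pairs of Cyp2d26 probes, the correlations were 0.881, 0.816 and 0.977, and 0.751, 0.567 and 0.899 without it.

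**Figure D3:**
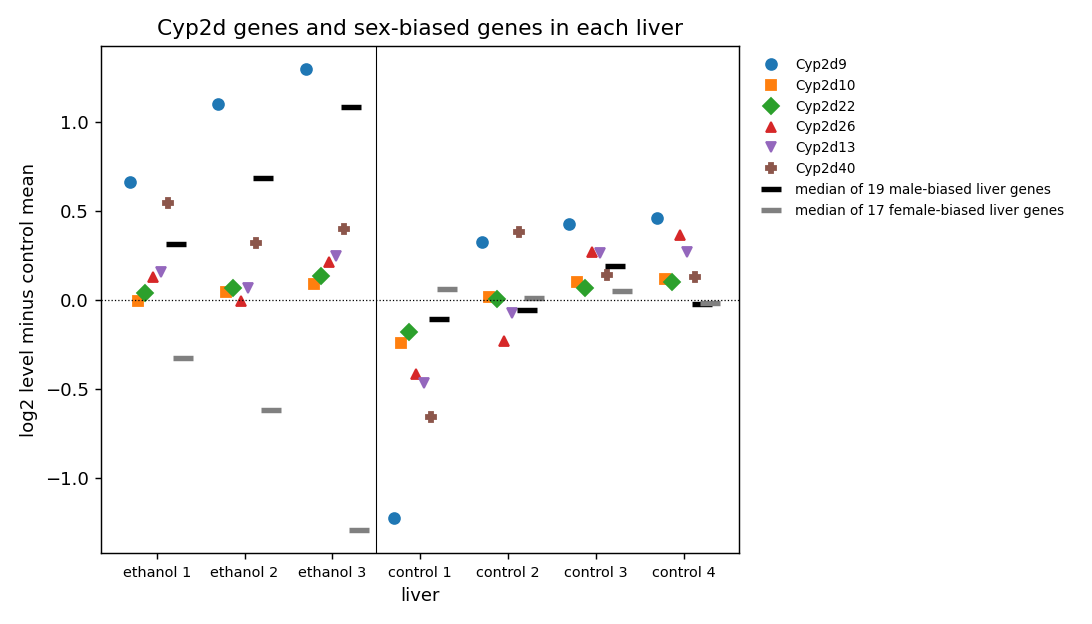
Log2 level minus the control mean for each liver (ethanol livers left, control livers right), for the brightest probe of 6 Cyp2d genes, with horizontal marks for the median of 19 male-biased and 17 female-biased liver genes. Cyp2d9 lies at 0.66, 1.10 and 1.30 in the ethanol livers and at -1.22 in control 1, where every Cyp2d gene is below 0.

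Cyp2d9 was read beside other genes with sex-biased expression in mouse liver, a list that does not hold it. Of 19 tested male-biased genes all 19 had a positive log2 fold change, with a median of 0.65. The median over all 12769 tested genes was -0.0014. Among the male-biased genes, Slco1a1 (0.07) was not above background on any array. Of these 19, 1 passed the limma threshold as higher, the fatty acid hydroxylase Cyp4a12a, against 0.00839% of all tested probes. Without overlap between groups were 12, all higher, against 4.15% of all probes. Cyp4a12a had 763, 3466 and 7503 in ethanol livers, against 27.8, 52.7, 118 and 12.9 in control livers, of which 3 were above background (4.58 ± 0.58, limma adjusted p 0.0394). Its relative Cyp4a12b (3.36 ± 0.51, adjusted p 0.110) and Mup20, a urinary pheromone carrier (2.67 ± 0.50, adjusted p 0.233), had the next smallest p-values. Of 17 tested female-biased genes 14 were below 0, with a median of -0.85. Fmo2 and Prom1, which lay above 0, were not above background on any array. Of the 17, 1 was past the threshold as lower, against 0.0126% of all probes, and 9 were lower without overlap, against 4.50%. The one that fell was Sult2a1, a sulfotransferase of steroids and bile acids, with 5.19, 17.5 and -6.33 in ethanol livers, against 150, 92.2, 92.0 and 191 in control livers (limma adjusted p 0.0394). It was not above background in any ethanol liver, so it was at least 2.05-fold higher in control livers, counted from the dimmest signal above background of each ethanol array. With control 1, control 3 or control 4 left out in turn, 0 probes of the array passed, these 2 genes included. The next female-biased genes were Hamp2, a hepcidin paralog (-0.88 ± 0.13, adjusted p 0.110), and Vldlr, a lipoprotein receptor (-0.90 ± 0.14, adjusted p 0.132). These lists were written with earlier results of these data known.

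Relative to the control mean, Cyp2d9 lay at 0.66, 1.10 and 1.30 on the log2 scale in ethanol 1, 2 and 3. In the same livers the median of the male-biased genes was 0.32, 0.69 and 1.08, and that of the female-biased genes -0.32, -0.62 and -1.29. The order of the 3 livers by distance from the control mean was the same for all of these. In control 1, where Cyp2d9 lay at -1.22, the male-biased median was -0.11 and the female-biased median 0.06. That male-biased median was the lowest of the 4 controls. Control 1 was the lowest control for 10 of the 19 male-biased and 5 of the 17 female-biased genes, against 3692 of all 12769 tested genes. Mup20, for one, had 464, 1422 and 2684 in ethanol livers, against 36.2, 143, 307 and 138 in control livers, with control 1 at 36.2.

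Genes that supply P450 enzymes with electrons or bind to them in the membrane had no member past the threshold. Of 6 tested, 3 were above and 3 below 0, with a median log2 fold change of 0.03. Pgrmc2, a haem-binding membrane protein, had 167, 159 and 208 in ethanol livers, against 124, 121, 153 and 131 in control livers (0.30 ± 0.10, limma adjusted p 0.469). Cyb5r3, the reductase of cytochrome b5, had 0.24 ± 0.10 (adjusted p 0.556), and Pgrmc1, a relative of Pgrmc2, had -0.20 ± 0.13 (adjusted p 0.692). None of the 8 tested genes of haem supply passed, and their median was -0.05. The 3 with the smallest p were Alad (-0.13), Fech (-0.12) and Ppox (0.09), enzymes of haem synthesis.

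Transcription factors of the hepatocyte also had no member past the threshold. Of 18 tested, 8 were above and 10 below 0, with a median of -0.0049. Ppara, the nuclear receptor of fatty acid oxidation, had 72.3, 67.8 and 59.5 in ethanol livers, against 100, 146, 93.9 and 81.0 in control livers, without overlap (-0.34 ± 0.12, limma adjusted p 0.472). Zkscan3, a zinc finger factor, had -0.19, and the glucocorticoid receptor gene Nr3c1 had -0.18 from a probe above background on 1 array. Hnf4a, whose motif is in the promoters shown, had 3469, 2315 and 2695 in ethanol livers, against 2071, 2241, 2778 and 2893 in control livers, which overlapped (0.17 ± 0.16, adjusted p 0.811). Gabpa, which encodes the DNA-binding subunit of GABP, was above background on 5 arrays and had 0.19 ± 0.14 (adjusted p 0.753). Hnf4a and Gabpa were named because of the promoter sequences.

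Of 6 tested genes of growth hormone input, the hormone signal that sets the male bias of Cyp2d9, none passed, and the median was -0.05. Socs2, a feedback inhibitor of that signal, had 1107, 1418 and 696 in ethanol livers, against 3488, 3696, 2283 and 2723 in control livers, without overlap (-1.48 ± 0.21, limma adjusted p 0.0864). Igf1, the growth factor that the hormone induces, had 0.19 ± 0.10 (adjusted p 0.638), and Socs3, a further inhibitor, had -0.24 ± 0.16 (adjusted p 0.702). Genes flanking the Cyp2d cluster gave 0 of 10 past the threshold, 7 above and 3 below 0, with a median of 0.04 and a range of -0.09 to 0.24. The 3 with the smallest p were Cyb5r3, as above, Tcf20, a transcriptional coregulator next to Cyp2d26 (0.16), and Nfam1, an immune receptor (0.10), whose probe was above background on 1 array. The other Cyp2d genes gave 0 of 2.

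The genes with the profile most like each Cyp2d gene were taken by Pearson r over the 7 livers on the log2 scale, among 10761 tested probes that had a single gene symbol outside the Cyp2d family and were above background on every array. For Cyp2d9 they were Pklr, the liver pyruvate kinase (r = 0.984), Mup2, a major urinary protein (0.983), and Edf1, a transcriptional coactivator (0.982). Pklr had 239, 277 and 352 in ethanol livers, against 95.9, 234, 232 and 222 in control livers. Mup2 had 13823, 23033 and 31731 in ethanol livers, against 745, 6064, 13300 and 7713 in control livers. Both had their lowest value in control 1 and, as for Cyp2d9, their highest in ethanol 3. Without control 1 the 3 correlations were 0.923, 0.920 and 0.904 over 6 livers.

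Cyp2d22 was most like Cyp1a2, another hepatocyte P450 that oxidises caffeine (r = 0.992), with 4465, 5525 and 5918 in ethanol livers, against 2111, 4416, 4741 and 5302 in control livers. The next were Slc39a4, a zinc transporter (0.985), and Ugt1a10, a glucuronosyltransferase (0.983). Cyp2d10 was most like Nubp2, an iron-sulfur cluster assembly factor (0.995), Macrod1, a hydrolase of ADP-ribose (0.988), and Npr2, a natriuretic peptide receptor (0.987). For Cyp2d26 they were Smap2 (0.975), Cmip (0.970) and Lrrc28 (0.969). With 7 livers and this many probes, high r values are common, and they are given as a description.

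**Figure D4:**
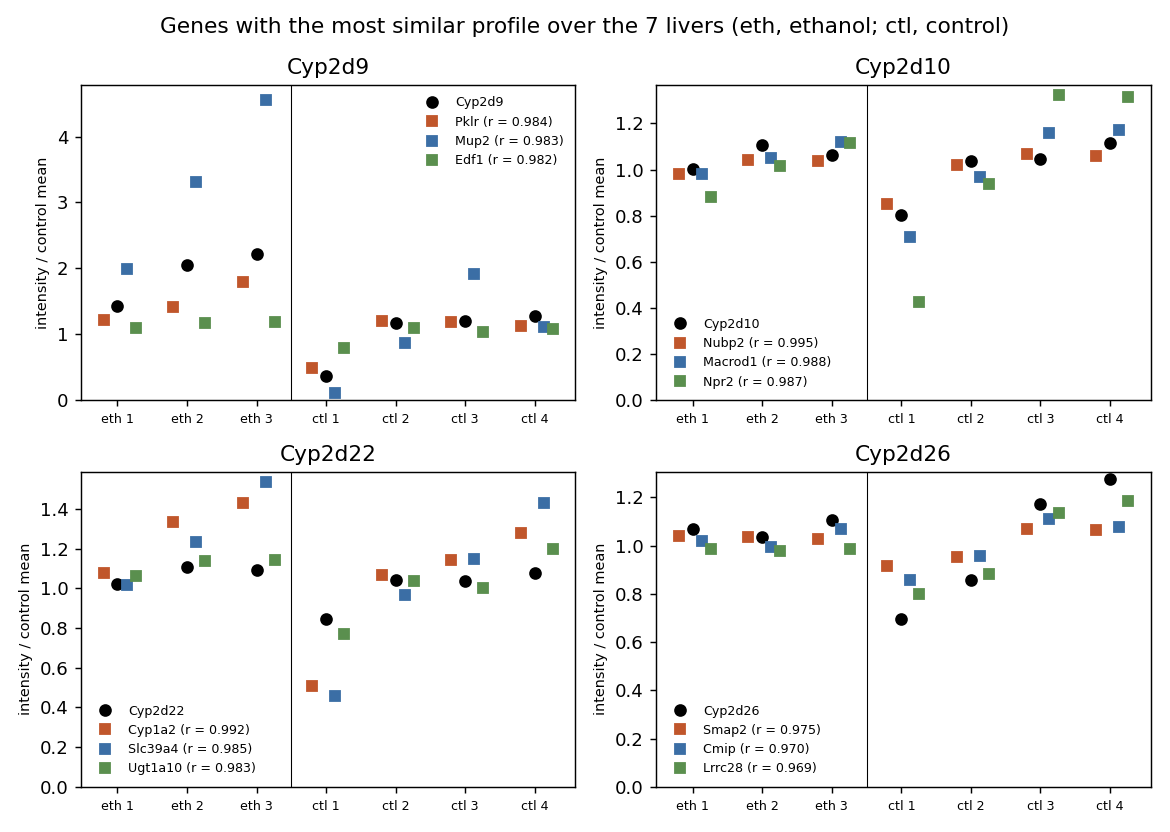
Intensity of each gene in each liver divided by its own control mean (linear axis from 0; eth, ethanol livers, left; ctl, control livers, right) for 4 Cyp2d genes and the 3 genes most like each, with r over 7 livers in the legend. Every profile drawn has its lowest value in control 1.

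Because whole liver was measured, fewer cells of a type and less RNA per cell cannot be told apart. Of 8 hepatocyte markers 6 were above background on all arrays and Tat on none, with Fgb above background on 6. Their summed intensity ran from 177648 to 185904 in ethanol livers and from 145308 to 175246 in control livers, and was 150700 in control 1. That sum differed between the groups in the same direction as Cyp2d9, and its part in the result was not tested. It was taken over deposited intensities and was carried mostly by the bright probes of Ttr, Apoa1 and Serpina1c. After normalization their log2 fold changes were 0.02, 0.07 and 0.11. The group means of these bright probes ran from 45847 to 56020, near the array maxima of 50423 to 63235. Alb read only 459 in ethanol and 475 in control livers, so the list is a limited gauge of hepatocyte content. The tested hepatocyte markers had a median log2 fold change of 0.06, and 0 of 8 passed. The summed Kupffer cell markers ran from 5894 to 9496 in ethanol livers and from 6311 to 7174 in control livers, the endothelial ones from 9548 to 11988 in ethanol livers and from 9455 to 13632 in control livers, and the stellate ones from 8855 to 10462 in ethanol livers and from 10112 to 11734 in control livers. Those of cholangiocytes ran from 269 to 569 in ethanol livers and from 218 to 709 in control livers, with the highest in control 1, those of lymphocytes from 114 to 231 in ethanol livers and from 110 to 135 in control livers, and those of erythroid cells from 47331 to 55132 in ethanol livers and from 37176 to 49871 in control livers. Kidney markers were above background on all arrays in 0 of 6, and pancreas and gut markers in 1 of 5 (Cela1). No tested marker of any of these lists passed the limma threshold.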

How the data were processed

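Liver RNA of 7 mice was measured on Illumina arrays. The report rests on the intensities deposited by the authors, which are linear values. The submitters' processing notes name GenomeStudio, and its background and normalization settings are not given in the sources used here. Values below 0 show that a background had been subtracted. A second table was not used, because its 14 columns match no sample label.

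The intensities were corrected with normexp (offset 50), put on the log2 scale and quantile normalized in limma 3.58.1 (R 4.3.3). Fold changes on this scale understate changes of dim probes. Noise was the root mean square of an array's negative values. Probes took current symbols through the Entrez gene ID, 34807 of 34885 with 1 symbol. Groups were compared with limma (two-sided, threshold 0.05 after Benjamini-Hochberg adjustment over all tested probes), with the fit tested on simulated data. The number of arrays limits precision.

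The genes and lists were chosen with earlier results of these data known. Each list used the brightest tested probe of a gene and named the 3 members with the smallest p, and likeness named 3 genes per Cyp2d gene. Alternatives covered background, offset, normalization, filter, variances, array weights, the replicate block and single livers. Same-numbered livers deviated from their group means with correlations of -0.19, 0.09 and 0.20. These values cannot decide whether the numbers pair the livers, and the main fit used no pairing. Promoters were aligned with Biopython 1.88.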

Additional observations from a re-analysis of the deposited data

Results flagged for a closer look

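The Cyp2d9 intensity of control 1 stood apart from the other controls. The gap between control 1 (3805) and the next control (11996), divided by the range of the 4 controls, was 0.878, above Dixon's 95% critical value for 4 samples. Such a value is met by chance in some groups, and among all tested probes control 1 was flagged as low in 184 (0.772%), control 2 in 100, control 3 in 85 and control 4 in 149. The same ratio was 0.815 for the bright Cyp2d22 probe and 0.743 for Cyp2d10, both under that value.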

How the results depend on the processing

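The log2 fold change of Cyp2d9 stayed positive in all 18 alternatives, from 0.61 (without control 1) to 1.20 (without ethanol 1), with limma adjusted p-values of 0.190 to 0.779. The count of the 7 probes past the threshold was 0 in all 18. Over runs without 1 liver, Cyp2d10 ranged from -0.035 to 0.086, the bright Cyp2d22 probe from 0.02 to 0.12 and the brightest Cyp2d26 probe from -0.026 to 0.24. Cyp2d10 and Cyp2d26 changed sign only without control 1 among the 18 alternatives. The other Cyp2d26 probes kept their sign in all, from 0.11 to 0.38 and from 0.07 to 0.35. The dim Cyp2d22 probe had 0.010 with the replicate block and 0.010 with replicates 1 to 3 and no block, against -0.0065 as reported, and -0.039 to 0.024 without 1 liver.

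The count over all tested probes was 5. It was 11 without further background correction, 3 at an offset of 16, 8 without a filter, 0 with only probes above background on 3 arrays, 1 with trended robust variances, 0 with ordinary variances, 24 with the replicate block, 0 with replicates 1 to 3 and no block (an alternative added after seeing the data), and 0 to 27 without 1 liver (0 without control 1, control 3 or control 4, and 27 without ethanol 1). The cause was not tested. The block moved no call of the Cyp2d probes. For Cyp2d9 it gave an SE of 0.21 and a limma adjusted p of 0.190. With replicates 1 to 3 and no block these were 0.38 and 0.504. A fit with array weights gave the livers weights from 0.843 (control 1) to 1.29 (control 3). With 7 livers, a difference such as that of Cyp2d26 cannot be told from the spread between controls.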

Other observations

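Some genes in the lists beside the Cyp2d genes varied between livers far more than between groups. Alas1, the rate-limiting enzyme of haem synthesis in liver, had 25637, 3662 and 9248 in ethanol livers, against 4158, 6343, 14701 and 23326 in control livers (log2 fold change -0.08 ± 0.64, limma adjusted p 0.987). Bcl6, a repressor with sex-dependent expression in mouse liver, had 1942, 349 and 193 in ethanol livers, against 488, 1372, 223 and 169 in control livers (0.32 ± 0.69, adjusted p 0.932). Cish, a feedback inhibitor of cytokine receptors, had 467, 730 and 2114 in ethanol livers, against 522, 558, 1717 and 1501 in control livers (-0.04 ± 0.50, adjusted p 0.992). These genes were named after their values had been seen. Alas1 was high in ethanol 1 and control 4, Bcl6 in ethanol 1 and control 2, and Cish in ethanol 3, control 3 and control 4.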
